A study of Saccharomyces cerevisiae with 24 samples.

Results

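The RNA of a yeast strain without the regulatory subunit of calcineurin was compared with that of the wild type after 12 h of growth in 200 mM CaCl2. Of the 24 RNA-seq libraries of the study, 6 belong to this comparison, 3 of the cnb1 mutant and 3 of the wild type (WT), chosen by their labels for strain, treatment and time. Both strains are haploid Saccharomyces cerevisiae of the BY4741 background with the genotype MATa his3delta1 ura3delta0 leu2delta0 lys2delta0, and both carry a HYG-TEFp-GFP(Y66F) construct inserted on chromosome VI. The mutant differs from WT by cnb1delta::KanMx, a replacement of CNB1 by a drug-resistance cassette. Cultures grew in synthetic medium whose nitrogen source was ammonium chloride and were diluted every 12 h so that they stayed in logarithmic growth. The other 18 libraries hold both strains before CaCl2 (0 h) and at 48 h and 72 h, with 3 libraries in each group. No culture kept for 12 h without CaCl2 was analysed here, so the time in culture and the salt cannot be told apart. The labels do not say whether the 3 libraries of a group came from separate colonies, so p-values measure the spread between libraries, which may be technical.

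Calcineurin is the protein phosphatase that is switched on by calcium and calmodulin. CNB1 encodes its regulatory subunit, which the catalytic subunits, encoded by CNA1 and CMP2, need for activity. Its best known substrate in yeast is Crz1, a zinc-finger transcription factor that enters the nucleus once dephosphorylated and turns on genes for calcium pumps, cell wall synthesis and ion transport. Calcineurin also acts on other proteins, among them regulators of the cell cycle, of sphingolipid synthesis and of mating.

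Total counts per library were 20818127 to 22100787 in these 6 and 18843220 to 22250806 in all 24. CNB1 was counted 1951, 1771 and 1478 times in the WT libraries at 12 h and 10, 6 and 11 times in the mutant libraries, as the labels say (-7.65 ± 0.34, log2 scale, SE; edgeR, adjusted p = 8.13e-12). The counts of URA3 and LEU2 were 0 in every library and that of LYS2 was 0 or 1. HIS3, of which the delta1 allele removes a part only, kept its reads and was higher in the mutant (1.09, log2 scale), a call that ended without mutant replicate 2 (0.67; edgeR, adjusted p = 0.112) or WT replicate 1 (0.93; adjusted p = 0.0549). The genes that define a MATa cell were present, and the summed level of the MATalpha-specific genes was 28.8 to 35.6 CPM (read counts scaled to library size) in the 6 libraries, against 493 to 1226 CPM for the MATa-specific genes. Median strain differences of the 16 chromosomes lay between -0.027 and 0.042 on the log2 scale. In a principal component analysis of the 6 libraries, the first component (58.2% of the variance) parted the strains, and the second (19.6%) parted replicate 2 of each strain from the others. Replicates 1 and 3 of the mutant were closer to each other than any pair of WT libraries at 12 h: a chi-square statistic per degree of freedom over genes was 4.61 for that pair, 49.6 and 55.9 for the pairs with replicate 2, and 34.9 to 83.5 in WT.

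After 12 h in CaCl2, the mutant differed from WT in 962 of the 6253 genes tested (15.4%). Of these, 527 (8.43% of the genes tested) were higher in the mutant and 435 (6.96%) were lower. The differences ran from -4.83 for YSR3 to 2.85 for HSP12 on the log2 scale among genes with a standard name and at least 20 CPM in a group, CNB1 apart. Most were small: 99 of the genes that were higher and 79 of those that were lower differed by more than 2-fold, and the median absolute log2 difference was 0.58 and 0.55. Genes were called with edgeR's quasi-likelihood test at a Benjamini-Hochberg adjusted p under 0.05, with the spread pooled over all 24 libraries. The mutant and WT libraries did not overlap in CPM for 41.3% of all genes tested, with the mutant libraries all above WT for 21.1% and all below for 20.2%. The count fell to 555 without mutant replicate 2 and to 622 without WT replicate 3, and it rose to 1695 when the 4 libraries numbered 1 at 48 h and 72 h, each farther from the other 2 of its group than those from each other, were left out of the estimate of the spread. When counts were scaled to library totals the median difference of all genes moved by 0.107 and 635 genes were higher and 240 lower, so that genes called higher were 72.6% of all called instead of 54.8%. Of the called genes named here, RCN2, PMC1, PUN1, NCW2, FRT1, MID1, SUR1, HXT2, HHT1, HHT2, FIT3, DAN4 and EUG1 lost their call under that scaling, and these as well as SNZ1, HXT5, SUL1 and FLO8 lost it with limma on log2(TPM + 1).

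**Figure D1:**
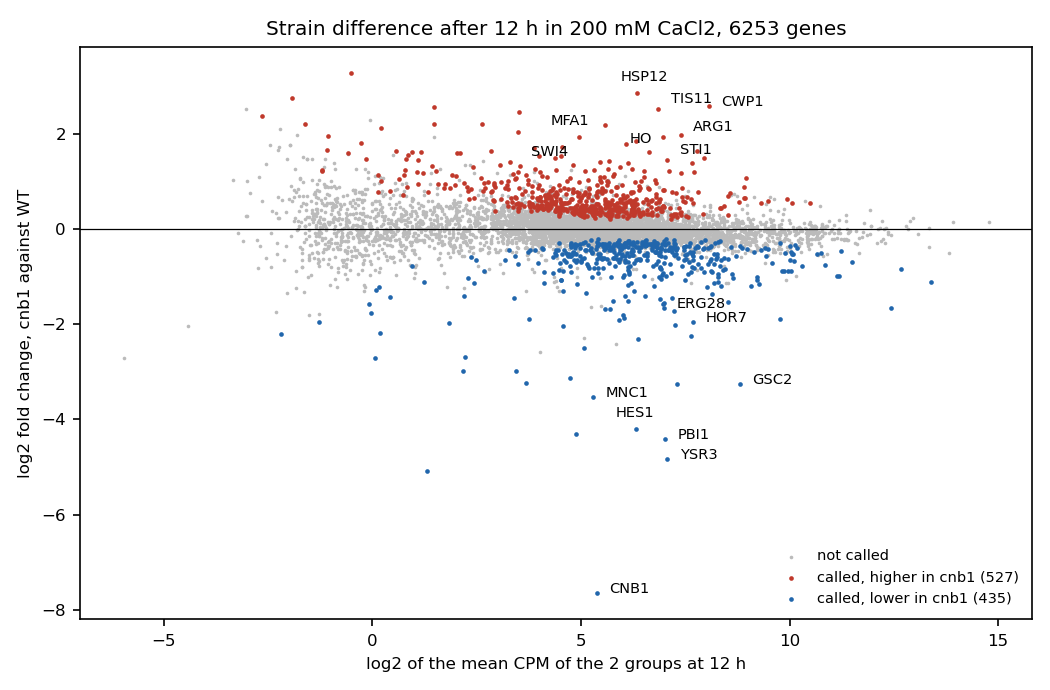
Each point is 1 of the 6253 genes tested. The x axis is the log2 of the mean CPM of the WT and mutant groups at 12 h, and the y axis is the log2 fold change of the cnb1 mutant against WT. Red points are the 527 genes called higher in the mutant and blue points the 435 called lower, by edgeR at an adjusted p under 0.05. CNB1 is the lowest point, and YSR3, PBI1, HES1 and GSC2 are among the lowest of the other genes.

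Before CaCl2 few strain differences were called, with the spread again pooled over all 24 libraries. Only 2 genes were called at 0 h (0.032% of the genes tested) by edgeR, both lower in the mutant. An unadjusted p under 0.05 was found for 225 (3.6%), and DESeq2 also called 2. The 2 genes called by edgeR were CNB1 and YDR210W-B, an open reading frame of a Ty retrotransposon, named here after its values were seen. YDR210W-B was lower by 4.72 on the log2 scale at 0 h and by 5.09 at 12 h, and Ty copies share sequence. The 527 genes that were higher at 12 h had a median log2 difference of 0.07 at 0 h, and the 435 that were lower had one of -0.09. The sign at 0 h was already that of 12 h for 374 of the former (71.0%) and 355 of the latter (81.6%). The difference between the strains was itself different at 12 h from that at 0 h for 114 genes (1.82%), 61 (0.976%) in the direction of higher levels in the mutant and 53 (0.848%) in that of lower levels (edgeR, interaction of strain and time). The balance of directions turned under other settings, with 43 higher and 50 lower under total-count scaling, 33 and 54 with limma on log2(TPM + 1), and 26 and 41 without WT replicate 2. When the similar mutant libraries 1 and 3 were summed at 0 h and at 12 h, 43 of the 114 calls were kept, 15 higher and 28 lower. That setting was chosen after the data were seen, and the interaction counts of the lists below were not repeated in it.

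**Figure D2:**
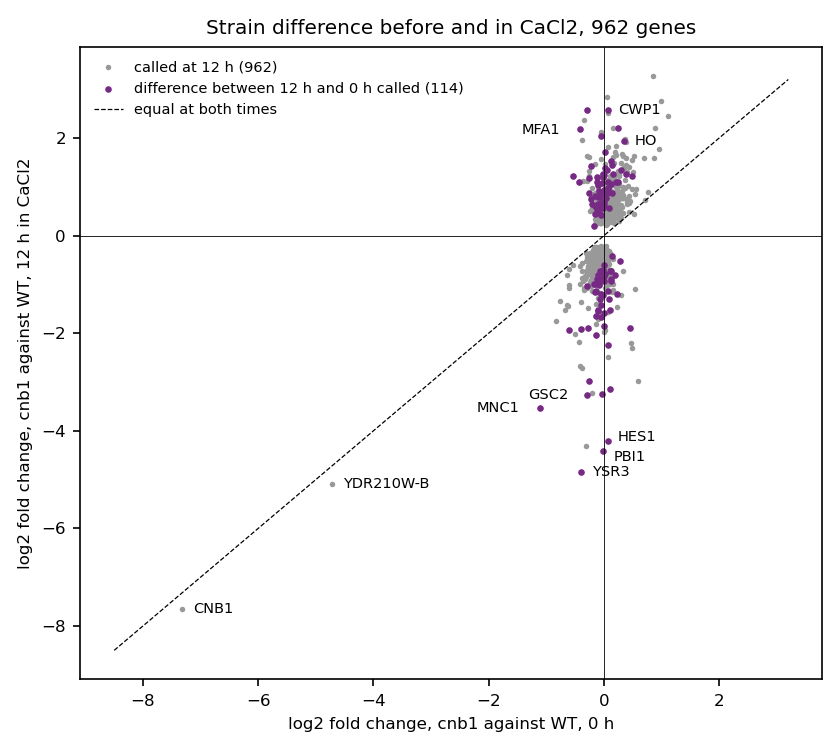
Each point is 1 of the 962 genes called at 12 h. The x axis is the log2 fold change of the mutant against WT before CaCl2 and the y axis is the same after 12 h. Purple points are the 114 genes whose strain difference differed between the times, and the dashed line marks equal differences. The points spread more along the y axis than along the x axis, while CNB1 and YDR210W-B lie near the dashed line.

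Most of the listed targets of Crz1 were lower in the mutant. Of 18 genes in the list, all 18 of which were tested, 12 were called lower and 0 higher, and their median log2 difference was -0.74, against 0.00 for all genes tested. At 0 h their median was already -0.30, against -0.01 for all genes, and the interaction test called 1 of the 18, GSC2. GSC2, also known as FKS2, encodes the alternative catalytic subunit of the glucan synthase that builds the main polymer of the cell wall. It stood at 842, 587 and 996 CPM in the WT libraries and at 87.9, 72.7 and 92.4 CPM in the mutant libraries. The groups were far apart, and the mutant libraries lay near the level of both strains before CaCl2, which was 112 ± 6.45 CPM in WT and 91.2 ± 9.72 CPM in the mutant (SD, n = 3). The log2 difference was -3.26 ± 0.32 (SE; edgeR, adjusted p = 1.72e-06), and it differed from that at 0 h by -2.96 ± 0.42 (edgeR, adjusted p = 0.00101).

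The pumps and transporters of the list followed with smaller differences. PMR1, the calcium and manganese pump of the Golgi, was at 352, 299 and 433 CPM in WT and 204, 184 and 203 CPM in the mutant, without overlap (-0.88 ± 0.12; edgeR, adjusted p = 5.61e-05). Its locus overlaps HUR1 on the other strand, and whether the counts used strand is not given in the sources used here. ENA1, the plasma membrane sodium pump, was at 50.1, 38.6 and 50.8 CPM and 27.5, 25.5 and 25.9 CPM (-0.82; adjusted p = 0.0025 with edgeR). Its copies ENA2 and ENA5 are nearly identical to it, so reads may be split among them, and neither was called. PMC1, the calcium pump of the vacuole, was at 121, 75.7 and 116 CPM in WT and 70.5, 62.1 and 68.7 CPM in the mutant. The groups did not overlap, with WT replicate 2 nearest to the mutant, and the call (-0.64; edgeR, adjusted p = 0.018) ended without mutant replicate 2 (adjusted p = 0.0812), WT replicate 1 (0.0852) or WT replicate 3 (0.0843). PHO89, which imports phosphate together with sodium, was at 305, 146 and 288 CPM in WT and 46.9, 88.5 and 47.7 CPM in the mutant, and replicate 2 was the library farthest from the others in both strains.

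The other called members were genes of the cell wall and of calcium signalling, among others. YPS1, a cell surface aspartyl protease, differed by -1.37, KRE6, needed for the branched glucan of the wall, by -1.06, and CHS1, the chitin synthase of wall repair, by -0.65, all on the log2 scale. CMK2, a calmodulin-dependent protein kinase, was at 90.1, 65.3 and 85.3 CPM in WT and 28.9, 26.8 and 28.2 CPM in the mutant (-1.52 ± 0.32; edgeR, adjusted p = 0.00314). CMK2 was already at 51.2 ± 6.89 CPM in WT and 32.2 ± 1.84 CPM in the mutant before CaCl2 (SD, n = 3), and the difference of -0.67 at 0 h was not called. RCN2, a calcineurin inhibitor of the calcipressin family, differed by -1.08. The calls of RCN2, PUN1 (-0.80) and NCW2 (-0.69) each ended under total-count scaling and when single libraries were left out, and the libraries of NCW2 overlapped.

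The members that were not called were ENA2, GYP7, ENA5, CRH1, RCN1 and SVS1, with log2 differences of -0.58 to 0.10. CRH1, an enzyme that joins chitin to glucan, was at 867, 719 and 717 CPM in WT and 709, 553 and 708 CPM in the mutant (-0.23; edgeR, adjusted p = 0.339), after 343 ± 21.7 CPM in WT and 368 ± 9.31 CPM in the mutant at 0 h (SD, n = 3), and the groups at 12 h were close without overlapping. CRZ1 itself was at 40.9, 36.5 and 40.4 CPM in WT and 45.7, 47.8 and 44.5 CPM in the mutant (0.23; edgeR, adjusted p = 0.0922). The catalytic subunits CNA1 (0.23) and CMP2 (0.26) were not called either. Of 13 tested genes for calcineurin subunits, substrates and regulators other than CNB1, 3 were lower and 0 higher, which were CMK2, RCN2 and FRT1 (-0.37), an endoplasmic reticulum membrane protein that calcineurin dephosphorylates. Of 10 tested genes in the calcium transport list, 4 were lower and 0 higher, which were PMR1, PMC1, CSG2 (-0.59) and MID1 (-0.31). CSG2 stands in that list but is not itself a calcium transporter. The count of 4 fell to 2, PMR1 and CSG2, without mutant replicate 2, without WT replicate 1 or without WT replicate 3. The calls of FRT1 and MID1 ended in several of these settings. VCX1, the vacuolar calcium and proton exchanger, differed by -0.15 and was not called. The genes beside CNB1 on chromosome XI, HYM1, PXA2, ACP1 and DPH2, were not called.

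**Figure D3:**
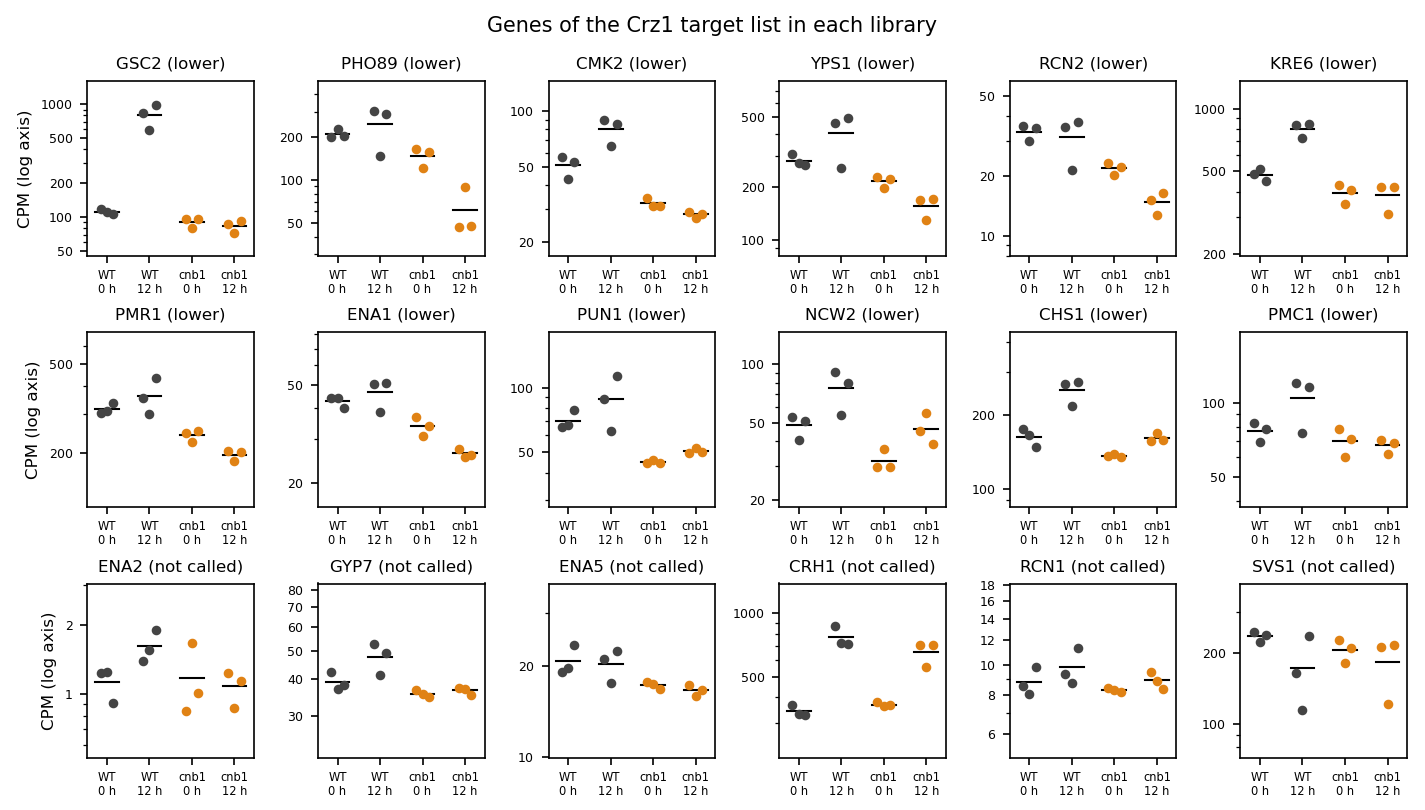
Levels of the 18 genes of the Crz1 target list in single libraries, in CPM on a log axis, for WT (grey) and the cnb1 mutant (orange) at 0 h and after 12 h in CaCl2. Each point is 1 library and each line the mean of 3. The word above each panel says whether the gene was called lower in the mutant at 12 h. GSC2 is the gene in which the groups at 12 h stand farthest apart.

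The letters that Crz1 is known to bind were looked up in the promoters, since they are the most direct mark of a Crz1 target in the sequence. The motif was GNGGCTCA or GNGGCGCA on either strand, in the R64 sequence from RefSeq. From 250 bases before to 50 bases after the gene start, 109 of 5720 promoters held it (1.91%), against 14 of 422 promoters of genes lower in the mutant (3.32%) and 5 of 519 of genes higher in the mutant (0.963%). Of the 109 genes with the motif, 14 were called lower (12.8%) and 5 higher (4.59%), and their median log2 difference was -0.107. Within 1000 bases before the start, a window chosen after the values were seen, the shares were 7.53% of all promoters, 10.7% of those of lower genes and 6.55% of those of higher genes. In the shorter window the motif stood in 2 of the 18 listed promoters (11.1%), those of PMC1 and GYP7, and in 1 of the 12 of called members (8.33%). The matches of all 5 listed genes that held one are shown, those of PMR1, ENA1 and CRH1 and the first of PMC1 lying only in the longer window, and GYP7 and CRH1 being genes that were not called. They are given with 20 bases on each side, read on the strand of the gene, with the motif or its reverse complement in capitals.
PMC1, chrVII:485361-485408, plus strand: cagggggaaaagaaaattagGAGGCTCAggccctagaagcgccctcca
PMC1, chrVII:485758-485805, plus strand: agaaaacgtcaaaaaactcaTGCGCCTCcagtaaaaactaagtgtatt
PMR1, chrVII:191166-191213, minus strand: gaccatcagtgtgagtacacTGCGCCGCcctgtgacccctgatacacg
ENA1, chrIV:538977-539024, minus strand: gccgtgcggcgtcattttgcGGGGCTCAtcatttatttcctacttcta
GYP7, chrIV:36598-36645, minus strand: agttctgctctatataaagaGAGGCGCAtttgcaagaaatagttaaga
CRH1, chrVII:878782-878829, minus strand: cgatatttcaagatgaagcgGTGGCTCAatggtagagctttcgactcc
GSC2 held no match of these letters in either window, although it had the largest difference of the list. A match is no evidence of binding, and the lack of one says only that these letters were not found.

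The genes with the largest differences were mostly outside the Crz1 list. YSR3 stood first and encodes a phosphatase of phosphorylated sphingoid bases. It was at 249, 271 and 255 CPM in WT and 9.11, 10.1 and 7.91 CPM in the mutant, after 12.3 ± 1.97 CPM in WT and 9.38 ± 0.937 CPM in the mutant at 0 h (SD, n = 3), and the difference was -4.83 ± 0.42 (SE; edgeR, adjusted p = 5.37e-07). HES1, an oxysterol-binding protein that moves sterols between membranes, was at 134, 207 and 114 CPM in WT and 8.29, 8.35 and 8.0 CPM in the mutant, and at 4.38 ± 0.449 CPM in WT and 4.57 ± 0.989 CPM in the mutant at 0 h. Both genes thus stood far above their starting level in all 3 WT libraries and much nearer to it in all 3 mutant libraries. PBI1 was at 229, 271 and 238 CPM and 10.1, 12.8 and 11.7 CPM in the same order (-4.42; edgeR, adjusted p = 0.000105), and MNC1 at 73.3, 59 and 83 CPM and 7.29, 5.45 and 5.97 CPM (-3.52; adjusted p = 6.31e-06 with edgeR). The remaining genes among the 15 lowest were YHK8, a transporter of the family that exports drugs (-3.25), the hexose transporter HXT5 (-3.22), FHN1, a plasma membrane protein related to the eisosome protein Nce102 (-3.14), CSS1 (-2.49), the membrane protein of zinc homeostasis IZH4 (-2.24), SCM4 (-2.03), PHO89, HOR7, which responds to osmotic stress (-1.94), the acyltransferase ICT1 (-1.92) and PAU6 (-1.90). PAU6 belongs to a family of nearly identical subtelomeric genes, so its reads are uncertain. The call of HXT5 ended when any library other than WT replicate 2 was left out, with adjusted p-values of 0.0576 to 0.115 in edgeR.

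Ergosterol synthesis was the list with the highest share of genes called lower. Of 26 genes, 20 were lower and 0 higher in the mutant, with a median log2 difference of -0.78 at 12 h and -0.11 at 0 h, and leaving out any 1 library left at least 15. The difference at 12 h differed from that at 0 h for 8 of the 26, all in the direction of lower levels in the mutant. ERG28, a scaffold that holds the sterol demethylation enzymes together, was at 193, 199 and 188 CPM in WT and 65.5, 52.2 and 66.6 CPM in the mutant, without overlap (-1.65 ± 0.17; edgeR, adjusted p = 2.4e-06). ERG2, the sterol isomerase, was at 826, 795 and 914 CPM in WT and 402, 318 and 426 CPM in the mutant (-1.15 ± 0.17; edgeR, adjusted p = 0.000108). At 0 h ERG2 was at 481 ± 15.9 CPM in WT and 431 ± 20.7 CPM in the mutant (SD, n = 3), so at 12 h WT stood above that level and the mutant near or below it. UPC2, the zinc-cluster activator of sterol genes, was at 143, 111 and 147 CPM in WT and 50.2, 49.6 and 52.4 CPM in the mutant, against 31.4 ± 4.27 CPM in WT and 29.7 ± 3.01 CPM in the mutant at 0 h. HES1, which stands in this list, binds sterols and makes none. The letters bound by Upc2 and its relative Ecm22, TCGTATA on either strand, were found in 3 of the 26 promoters (11.5%) from 250 bases before to 50 after the start, against 240 of all 5720 (4.20%). In that window they stood in 5.45% of promoters of all genes lower in the mutant and in 3.47% of those of higher genes. The matches before ERG2 and ERG28, the latter outside that window, are shown with the motif or its reverse complement in capitals, as both are among the 4 genes of the list with the largest differences.
ERG2, chrXIII:667332-667378, plus strand: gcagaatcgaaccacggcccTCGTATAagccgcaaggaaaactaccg
ERG28, chrV:238268-238314, minus strand: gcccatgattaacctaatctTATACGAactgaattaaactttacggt

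A part of the sphingolipid genes was lower in the mutant. Of 32 genes of sphingolipid synthesis and signalling, 9 were lower and 0 higher, with a median of -0.14, and the count fell to 3 without mutant replicate 2 and to 4 without WT replicate 3. Beside YSR3, the lower genes included ORM2, a brake on sphingoid base synthesis, at 159, 107 and 202 CPM in WT and 78.8, 64.9 and 87.8 CPM in the mutant (-1.02; edgeR, adjusted p = 0.000402). IPT1 (-0.94), which makes the most complex yeast sphingolipid, and SUR1 (-0.84), of the preceding step, were also lower. The call of IPT1 ended without mutant replicate 2 (edgeR, adjusted p = 0.0678), and that of SUR1 without any of 4 libraries (0.0588 to 0.193). Of 16 genes of the zinc regulon, 5 were lower and 1 higher, among them IZH4 at 289, 424 and 278 CPM in WT and 76.8, 51 and 81.8 CPM in the mutant and IZH2 (-1.20), and the 5 became 3 without mutant replicate 2.

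The cell cycle lists moved apart. Of 41 genes of the G1/S transition and DNA replication, 18 were higher in the mutant and 0 lower, with a median log2 difference of 0.38, and leaving out any 1 library left at least 13. Of 19 tested genes of the CLB2 cluster, which peak at the G2/M transition, 11 were lower and 1 higher, with a median of -0.50. In bulk RNA a larger share of cells in a phase and more RNA per cell cannot be told apart. SWI4, the DNA-binding subunit of the G1/S factor SBF, was at 15.8, 15.6 and 15.6 CPM in WT and 39.8, 37.9 and 42.3 CPM in the mutant. The 3 WT libraries were nearly equal, and the groups were far apart (1.35 ± 0.18; edgeR, adjusted p = 6.19e-05). POL1, the catalytic subunit of DNA polymerase alpha, was at 34.8, 37.9 and 30.8 CPM in WT and 76.9, 67.6 and 78.6 CPM in the mutant (1.11 ± 0.12; edgeR, adjusted p = 7.18e-06). The S phase cyclin gene CLB6 was at 4.77, 4.26 and 5.09 CPM in WT and 12.5, 10.2 and 13.2 CPM in the mutant (1.34), and YOX1, a repressor of early cell cycle genes, at 27.4, 14.5 and 28.9 CPM and 53.6, 40.8 and 50.9 CPM (1.04). The call of YOX1 ended without mutant replicate 1 (edgeR, adjusted p = 0.0523) or WT replicate 2 (0.0757).

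HO, the endonuclease of mating-type switching and a textbook target of SBF, was at 49, 57 and 49.7 CPM in WT and 210.4, 185 and 201 CPM in the mutant. All 3 mutant libraries were above 3 times the WT level, and the difference of 1.94 ± 0.15 (SE; edgeR, adjusted p = 1.9e-07) was larger than that at 0 h by 1.58 (adjusted p = 0.000737 with edgeR). KCC4, a kinase at the septin ring, was at 10.8, 12.8 and 11.5 CPM and 34.9, 31.8 and 35.5 CPM in the same order. In the opposite direction, CLB2, the main mitotic cyclin gene, was at 88.8, 102 and 87.3 CPM in WT and 51.1, 43.3 and 53.3 CPM in the mutant (-0.91 ± 0.15; edgeR, adjusted p = 0.000363). Its paralog CLB1 (-1.04), HOF1 (-0.79), of the ring that divides the cell, and CHS2 (-0.69), the chitin synthase of the septum, were lower too, whereas MYO1, the myosin of that ring, was higher (0.56). Of 10 histone genes, 4 were lower and 0 higher, which were HTA1 (-0.71), HTB1 (-0.47), HHT1 (-0.40) and HHT2 (-0.36). The call of HHT1 ended without any of 4 libraries (edgeR, adjusted p-values of 0.0867 to 0.173). The count of histone genes fell to 2 under total-count scaling, and copies of a histone gene share most of their coding sequence. Of 16 genes of the M/G1 interval and of daughter cells, 6 were higher and 0 lower, among them DSE1, a daughter-specific gene of cell separation, at 327, 272 and 371 CPM in WT and 684, 688 and 658 CPM in the mutant.

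The letters bound by the G1/S factors were more frequent in promoters of genes higher in the mutant. ACGCGT, the letters of MBF, which is its own reverse complement, stood in 182 of all 5720 promoters from 250 bases before to 50 after the start (3.18%). It stood in 60 of the 519 promoters of genes higher in the mutant (11.6%) and in 7 of the 422 of genes lower in the mutant (1.66%). CGCGAAA, the letters of SBF, on either strand, stood in 3.57% of all promoters, 6.94% of those of higher genes and 1.66% of those of lower genes. The motifs share letters and can overlap. These searches were added after the values were seen and carry no test. Of the 41 listed genes, 15 held ACGCGT in that window (36.6%). The matches nearest to the start are shown for the 4 listed genes with the largest differences, of which those of SWI4, CLB6 and YOX1 lie outside that window but within 1000 bases.
SWI4, chrV:386359-386404, minus strand: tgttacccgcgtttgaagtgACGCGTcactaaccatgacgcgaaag
CLB6, chrVII:706853-706898, minus strand: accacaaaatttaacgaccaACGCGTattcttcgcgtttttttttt
POL1, chrXIV:429859-429904, plus strand: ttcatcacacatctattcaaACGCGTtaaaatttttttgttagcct
POL1, chrXIV:429894-429939, plus strand: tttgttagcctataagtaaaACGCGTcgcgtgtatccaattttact
YOX1, chrXIII:220889-220934, plus strand: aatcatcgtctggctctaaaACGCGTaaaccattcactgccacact

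**Figure D4:**
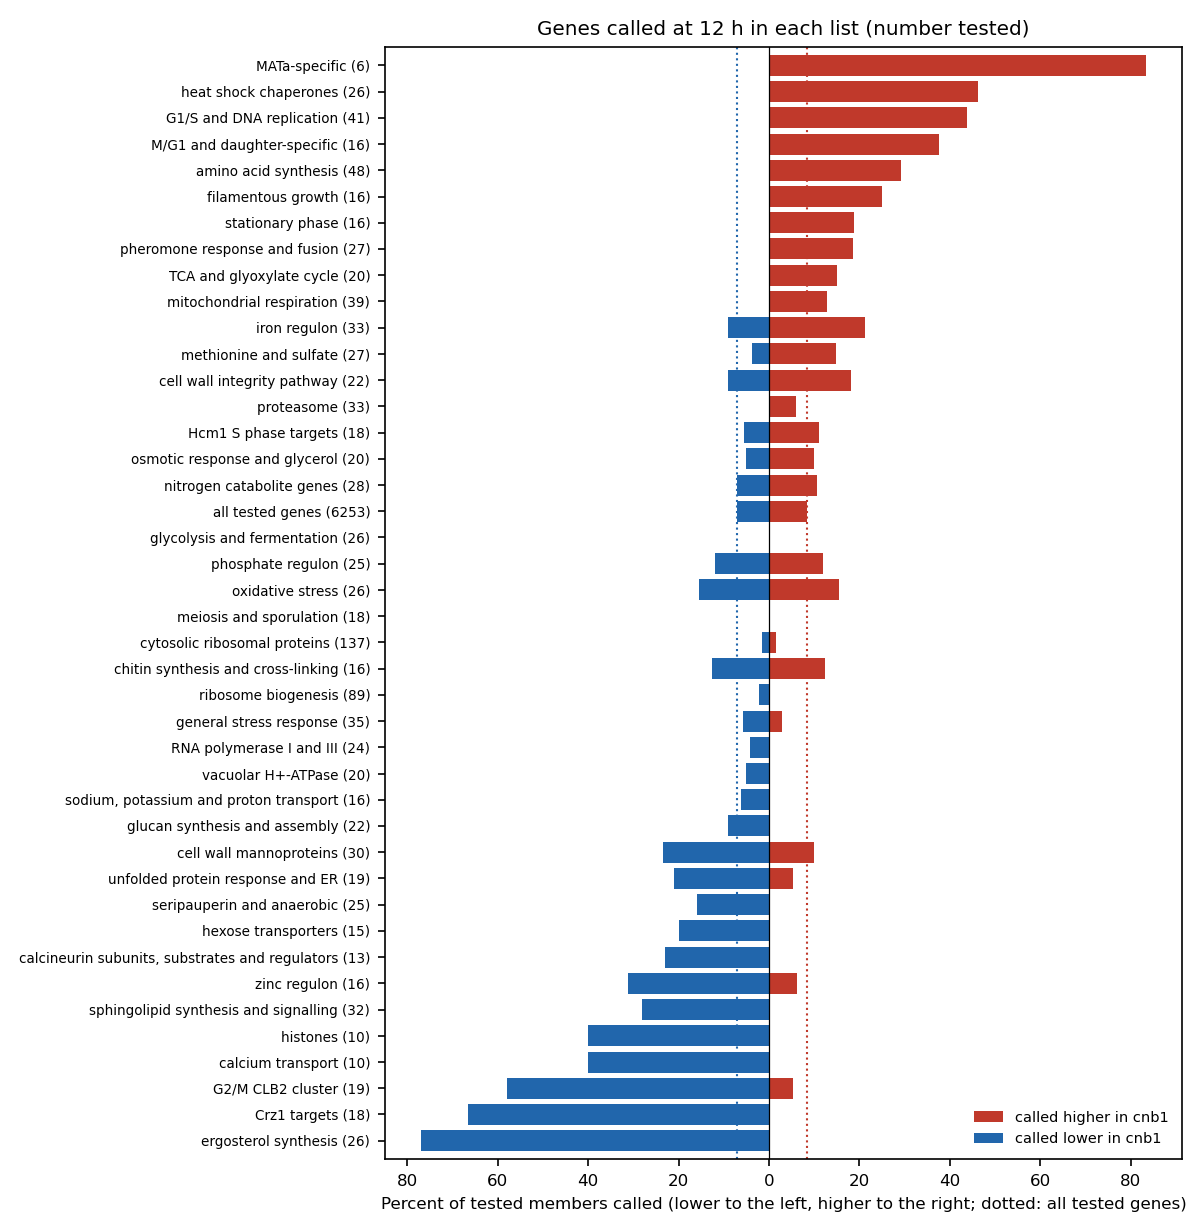
For each gene list with at least 5 tested members, the bar to the right gives the percent of members called higher in the mutant at 12 h and the bar to the left the percent called lower. Numbers in parentheses count the members tested, and dotted lines mark the 8.43% and 6.96% of all genes. Ergosterol synthesis has the longest bar to the left and the MATa-specific genes the longest to the right.

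Many chaperone genes were higher in the mutant. Of 26 heat shock chaperone genes, 12 were higher and 0 lower, with a median log2 difference of 0.55 at 12 h and 0.00 at 0 h, and leaving out any 1 library left at least 9. HSP82, the inducible Hsp90, was at 40.4, 23.6 and 41.5 CPM in WT and 124, 129 and 125 CPM in the mutant (1.84 ± 0.46; edgeR, adjusted p = 0.00945). WT replicate 2 was the lowest, and without it the difference was 1.62 with an adjusted p of 0.05 in edgeR, which ended the call. Its near-identical copy HSC82 can share reads with it. STI1, which couples Hsp70 to Hsp90, was at 79, 64.1 and 73.6 CPM in WT and 194, 210.3 and 187 CPM in the mutant (1.45 ± 0.19; edgeR, adjusted p = 4.49e-05). AHA1, an activator of Hsp90, differed by 0.87, and BTN2, which sorts misfolded proteins, by 1.32. HSP12, a membrane-stabilising stress protein and the highest of the ranked genes, was at 24.7, 13.1 and 21.9 CPM in WT and 169, 95.9 and 165 CPM in the mutant. Replicate 2 was the lowest of its group in both strains, and the call (2.85 ± 0.80; edgeR, adjusted p = 0.0201) ended without WT replicate 2 (adjusted p = 0.0782) or WT replicate 3 (0.0661). Among 35 genes of the general stress response, 1 was higher and 2 were lower.

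Genes that define the MATa cell were higher in the mutant. Of 6 MATa-specific genes, 5 were higher, with a median log2 difference of 1.04 at 12 h and -0.24 at 0 h, and 4 of the 6 differed from 0 h by the interaction test. MFA1, which encodes a-factor, was at 17, 13 and 21.6 CPM in WT and 72.8, 81 and 79.1 CPM in the mutant (2.17 ± 0.27; edgeR, adjusted p = 2.03e-05). Before CaCl2 it was at 401 ± 75 CPM in WT and 299 ± 16.1 CPM in the mutant (SD, n = 3), so both strains were lower at 12 h than at 0 h and WT was the lower of them. MFA2, the second a-factor gene, was at 125, 104 and 154 CPM in WT and 292, 244 and 337 CPM in the mutant, and BAR1, the protease that degrades alpha-factor, at 34.3, 18.4 and 30.2 CPM and 76, 74.2 and 72.1 CPM. The groups of MFA1, MFA2 and BAR1 did not overlap. Of 27 genes of the pheromone response and cell fusion, 5 were higher and 0 lower, among them FUS1, of the fusion of mating cells, at 1.06, 0.642 and 0.699 CPM in WT and 4.24, 6.05 and 4.03 CPM in the mutant. FUS1 was thus low in all 6 libraries, after 22.4 ± 3.33 CPM in WT and 18.3 ± 6.94 CPM in the mutant at 0 h (SD, n = 3). SST2 (1.09), which turns the pheromone signal off, and MDG1 (1.72), which takes part in that signal, were also higher. The pheromone count fell to 3 without WT replicate 3. TGAAACA, the letters of the mating factor Ste12, stood on either strand in 5 of the 6 promoters of MATa-specific genes, against 421 of 5720 (7.36%). Among all called genes it stood in 9.06% of promoters of genes higher in the mutant and in 7.11% of those of lower genes, near the share of all. Of 60 promoters of genes whose difference rose from 0 h to 12 h by the interaction test, 12 held it (20%). That set includes the 4 MATa-specific genes called by that test. The matches before MFA2 and BAR1 are shown because, after MFA1, they have the largest differences of the list. Those before MFA1 lie outside that window, at 312 and 748 bases from the start.
MFA2, chrXIV:352199-352245, plus strand: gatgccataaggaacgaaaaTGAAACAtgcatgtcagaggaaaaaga
BAR1, chrIX:322138-322184, plus strand: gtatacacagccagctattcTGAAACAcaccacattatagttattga

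A part of the amino acid synthesis genes was higher in the mutant, and 1 library decided much of it. Of 48 genes, 14 were higher and 0 lower, with a median of 0.30. Without mutant replicate 2 the count was 5. ARG1, of arginine synthesis, was at 60.5, 79.7 and 64 CPM in WT and 162, 473 and 165 CPM in the mutant. Replicate 2 of the mutant was far above the other 2, which still lay above all 3 WT libraries. The difference was 1.97 ± 0.36 (edgeR, adjusted p = 0.000908) and 1.26 without that library. HIS4, of histidine synthesis, showed the same order with 100.1, 130 and 87.9 CPM in WT and 226, 543 and 224 CPM in the mutant, as did ARG4 with 124, 127 and 142 CPM and 252, 592 and 258 CPM. The difference of HIS4 was 1.64 with that library and 1.08 without it. The difference of ARG4 was 1.49 with that library and 0.96, not called, without it, and that of ARG3 was 1.71 and 1.19, not called. The same library stood out in the summed level of stationary phase markers, with 320 CPM against 103 to 124 CPM in the other 5, of which SNZ1 had the largest part. SNZ1, of vitamin B6 synthesis, was at 29.6, 29.5 and 32.6 CPM in WT and 45.3, 221 and 49.1 CPM in the mutant, and without replicate 2 its difference was 0.63 (edgeR, adjusted p = 0.497). What this library shares in culture or handling was not tested. TGACTC, the letters of the amino acid regulator Gcn4, stood on either strand in 27 of the 48 promoters (56.2%), against 8.15% of all.

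The cell wall and iron lists held genes of both directions. Of 30 cell wall mannoproteins, 3 were higher and 7 lower. CWP1 was at 90.5, 41.5 and 98.2 CPM in WT and 539.6, 297 and 534 CPM in the mutant (2.57 ± 0.27; edgeR, adjusted p = 4.09e-06), against 608 ± 22.6 CPM in WT and 636 ± 60.2 CPM in the mutant at 0 h (SD, n = 3). Its level was thus far under that of 0 h in all 3 WT libraries and nearer to it in the mutant, with replicate 2 the lowest of each group. YPS3 (-1.48), a relative and neighbour of YPS1, and PLB2 (-1.21), a phospholipase, were lower. In the cell wall integrity pathway 4 of 22 were higher and 2 lower, the former including PRM5 at 43.3, 43.6 and 44.1 CPM in WT and 93.2, 132 and 89.7 CPM in the mutant and the kinase homolog KDX1 (1.21), both known targets of the pathway's factor Rlm1, and RLM1 itself (0.51). The sensors WSC2 (-0.66) and WSC3 (-0.63) were lower. The calls of WSC2 (0.0751 to 0.168), WSC3 (0.0514 to 0.0713) and RLM1 (0.0582) ended without single libraries, with these adjusted p-values in edgeR.

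Of 33 genes of the iron regulon, 7 were higher and 3 lower. TIS11, also known as CTH2, which degrades messages of iron-rich proteins, was at 45.2, 13.3 and 45.1 CPM in WT and 187, 211 and 194 CPM in the mutant (2.52; edgeR, adjusted p = 0.00449). FIT1, a wall protein that holds iron siderophores, was at 1320, 1470 and 1312 CPM in WT and 396, 309 and 403 CPM in the mutant (-1.89 ± 0.28; edgeR, adjusted p = 0.000114), from 19.3 ± 2.51 CPM in WT and 26.6 ± 6.43 CPM in the mutant at 0 h (SD, n = 3). WT replicate 2 was low for TIS11 and for CCC2, the copper pump of the secretory pathway, which was at 66.9, 12.5 and 67.6 CPM in WT and 162, 132 and 156 CPM in the mutant. The call of CCC2 (1.62) ended when any library other than WT replicate 1 was left out (edgeR, adjusted p-values of 0.0505 to 0.117), and the 7 genes became 3 without mutant replicate 1 or mutant replicate 2. FIT3 (-1.10) lost its call in 5 of the 6 settings that left out 1 library, with adjusted p-values of 0.0623 to 0.191 in edgeR.

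Few genes of ribosomes, glycolysis, the proteasome or the vacuolar proton pump were called at 12 h. Over all genes 8.43% were called higher and 6.96% lower. The lists given after those lay above the share of all genes in a direction or in both. Of 137 cytosolic ribosomal protein genes, 2 were higher and 2 lower, with a median of -0.05, and of 89 genes of ribosome biogenesis 0 were higher and 2 lower. Glycolysis and fermentation had 0 genes called by edgeR among 26 (1 at an unadjusted p under 0.05), the proteasome had 2 higher among 33, and the vacuolar proton pump had 1 lower among 20. Of 39 nuclear genes of mitochondrial respiration, 5 were higher and 0 lower, among them CYT1 (1.0), whose call ended without any of 4 libraries (edgeR, adjusted p-values of 0.0528 to 0.0833), and QCR2 (0.78), and the count was 2 without mutant replicate 2 or WT replicate 2. Of 15 hexose transporter genes, 3 were lower, which were HXT5, HXT2 (-0.98) and HXT3 (-0.85). Without mutant replicate 2 or WT replicate 1 none of the 3 kept its call, and that of HXT2 ended in 5 of the 6 settings that left out 1 library (edgeR, adjusted p-values of 0.0731 to 0.202). Of 25 genes of the phosphate regulon, 3 were higher and 3 lower. Of 28 genes under nitrogen catabolite control, 3 were higher, among them the arginase gene CAR1 (1.39), and 2 lower.

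Later libraries of both strains, which share none with the 12 h groups, carried part of the difference. The tests at all times share 1 estimate of the spread for each gene, so their calls are not independent. A gene with a small pooled spread is called more easily at every time, and the shares of all genes below make no allowance for that. At 48 h 306 genes were called (4.89%) and at 72 h 570 (9.12%). Of the 527 genes higher at 12 h, 118 were also called higher at 48 h (22.4%, against 2.70% of all genes) and 171 at 72 h (32.4%, against 4.67%). Of the 435 lower genes, 99 were called lower at 48 h (22.8%, against 2.19%) and 169 at 72 h (38.9%, against 4.45%). The sign was kept at 48 h and 72 h by 85.0% and 86.5% of the higher genes and by 95.9% and 94.3% of the lower genes. Their medians at those times were 0.27 and 0.32, and -0.27 and -0.32. A test of the difference between 12 h and 48 h or 72 h called 32 of the 527 and 11 of the 435 as larger at 12 h. The Crz1 targets kept a median of -0.75 at 48 h and -0.98 at 72 h, and the MATa-specific genes one of 1.13 and 1.19. For CWP1 the difference was 2.74 at 48 h and 3.03 at 72 h, and for YSR3 it was -3.31 and -3.26.

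The cell cycle lists stood differently at the later times. The median of the G1/S genes was 0.38 at 12 h, -0.19 at 48 h and -0.11 at 72 h. By the test of the difference between times, 11 of the 41 were higher at 12 h than at 48 h relative to WT and 10 were higher than at 72 h. Over all genes that test called 33 genes (0.528%) against 48 h, 30 higher (0.48%) and 3 lower (0.048%), and 43 genes (0.688%) against 72 h, 30 higher (0.48%) and 13 lower (0.208%). The CLB2 cluster had a median of -0.50, -0.09 and 0.16 at the 3 times, and 6 of its 19 genes were lower at 12 h than at 72 h relative to WT by that test, while 0 were called against 48 h (edgeR, 9 at an unadjusted p under 0.05). HO stood at 0.30 and 0.19 at 48 h and 72 h, after 1.94 at 12 h. Heat shock chaperones had a median of 0.14 and 0.16 and ergosterol genes one of -0.34 and -0.46 at 48 h and 72 h, and 0 members of either list were called by the test of the difference between 12 h and a later time (edgeR). At an unadjusted p under 0.05 there were 6 chaperone and 10 ergosterol genes against 48 h, and 3 and 7 against 72 h. The contrasts between 12 h and later times were added after the values were seen.

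**Figure D5:**
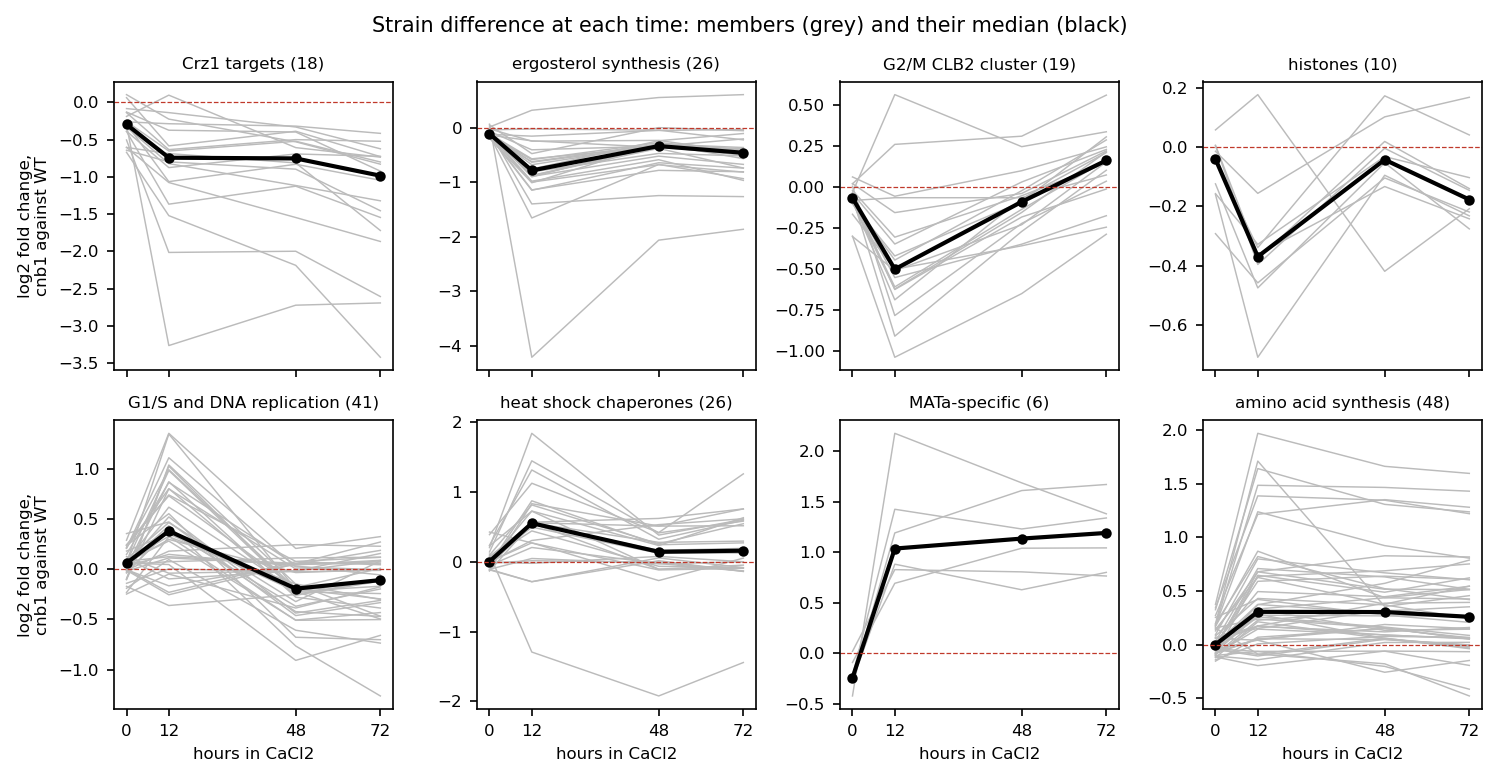
Log2 fold change of the cnb1 mutant against WT at 0, 12, 48 and 72 h in CaCl2 for the members of 8 gene lists (grey lines) and their median (black), with the number of members tested in parentheses. The y axes differ between panels and the red dashed line marks 0. The median of the G1/S genes is 0.38 at 12 h and below 0 later, while that of the MATa-specific genes stays above 1 from 12 h on.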

How the data were processed

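PolyA-enriched RNA was sequenced from 2 strains at 4 times, with 3 libraries in each of the 8 groups. The authors deposited a table of read counts per gene and a table of TPM values. Per the submitters' processing notes, featureCounts and DESeq2 were used with the R64 build. The aligner, the annotation release, the treatment of reads with several matches and the use of strand have no entry in the labels or headers used here. The count table holds 7126 genes, of which 6253 passed edgeR's filterByExpr. Symbols came from the table for 5110 genes and from the RefSeq annotation for 240, and 6048 genes matched that annotation by locus tag.

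Counts were scaled by TMM and fitted with edgeR 4.0.16 (R 4.3.3), with 1 coefficient for each group over all 24 libraries and 16 residual degrees of freedom. The quasi-likelihood test gave the strain difference at each time and the interaction with time, and genes were called at a Benjamini-Hochberg adjusted p under 0.05. All log2 differences are mutant minus WT unless said otherwise, and errors on them are SE. CPM values used TMM-scaled totals. CPM depends on gene length, so levels are compared between libraries and not between genes. The script was tested on simulated counts. The alternatives were RLE scaling, total-count scaling, other filters, DESeq2 1.42.0, limma 3.58.1 on log2(TPM + 1) and log2(TPM + 0.1), the 6 libraries alone, the replicate number as a block, and leaving out single libraries.

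The members of the comparison, the 42 gene lists and the rules were chosen with earlier results of these data known. Genes named are the 15 highest and 15 lowest of 743 that were called, had a standard name, at least 20 CPM in a group and no overlap of libraries, together with those of the interaction (5 in each direction), the Crz1, calcineurin and calcium lists, the neighbours of CNB1, and up to 4 called members per direction of every other list. Sequences are R64 from RefSeq. The window of 1000 bases and the motifs of Upc2, MBF, SBF and Gcn4 were added after the values were seen. Beside those of Crz1 and Ste12, 4 motifs were planned, with these shares in lower, higher and all promoters in the shorter window. They were 19.9%, 20.6% and 21.9% for AGGGG (Msn2/Msn4) and 1.42%, 1.73% and 1.31% for TGCACCC (Aft1). For TAAACAA (forkhead factors) they were 16.1%, 10.6% and 12.8%, and for CACGTG (Pho4, Cbf1) 2.84%, 3.66% and 2.97%.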

Additional observations from a re-analysis of the deposited data

Results flagged for a closer look

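The strain difference at 12 h differed from that at 0 h by the interaction term of the edgeR model for 61 genes in the direction of higher and 53 in that of lower levels in the mutant. Of these, 43 kept their call when mutant libraries 1 and 3 were summed at 0 h and at 12 h. Against 48 h the difference at 12 h was higher for 30 genes and lower for 3, and against 72 h it was higher for 30 and lower for 13. The interaction of strain with 12 h against 0 h was largest in the higher direction, among the ranked genes, for MFA1 (2.60), CWP1 (2.51), MDG1 (1.70), HO (1.58) and STI1 (1.31), on the log2 scale. In the lower direction it was largest for YSR3 (-4.44), PBI1 (-4.40), HES1 (-4.27), GSC2 (-2.96) and MNC1 (-2.41). Groups of 3 libraries were not tested for outlying samples.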

How the results depend on the processing

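No called difference of a named gene reversed its sign under any alternative run, and 78 of the 159 named genes that were called kept their call under all of them. Against 962 calls at 12 h, edgeR gave 961 with RLE scaling, 918 with no filter, 916 with a minimum of 10 CPM and 1144 from the 6 libraries alone, and DESeq2 gave 1107. Genes called lower were 240 with total-count scaling, and 229, 224 and 233 with limma on log2(TPM + 1), on log2(TPM + 0.1) and without a filter. Without the 4 late libraries numbered 1 the count was 1695 (903 higher, 792 lower), with 398 for the interaction, for which DESeq2 gave 231. At 0 h a minimum of 10 CPM and each limma fit gave 1. Leaving out 1 library at 12 h gave 555 to 751 calls, 302 to 428 higher and 253 to 368 lower, and 67 to 100 for the interaction. Replicates 1 and 3 of the mutant were alike at 0 h and 12 h. Summing each pair, an alternative chosen after seeing the data, left 647 calls (275 lower), of which 639 were among the 962. For the interaction it left 43 (15 higher, 28 lower). The replicate numbers did not pair the strains at 12 h by their correlations (0.138, 0.366 and 0.0149; 0.226, 0.229 and 0.193 at 0 h), though replicate 2 of both strains deviated alike. With the number as a replicate block the counts were 1554 (822 higher, 732 lower) and 373 for the interaction, and 1721 (893 higher, 828 lower) with the block on the 6 libraries, while 0 h kept 2. The causes of these shifts were not tested, and some settings also had fewer samples or genes.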

Other observations

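Some members of smaller gene lists were called at 12 h, against 8.43% of all genes called higher and 6.96% called lower. Of 25 tested seripauperin and anaerobic genes, 4 were lower and 0 higher, among them HEM13, of heme synthesis (-1.19), and the wall protein gene DAN4 (-1.15), both normally low with oxygen, whose calls ended without mutant replicate 2 (adjusted p = 0.074 and 0.0956) or WT replicate 2 (0.0598 and 0.0754, edgeR). The list's median was -1.11 at 12 h and 0.03 at 0 h, but its copies are nearly identical and many are at low counts. Of 19 genes of the unfolded protein response and the endoplasmic reticulum, 4 were lower and 1 higher, the former with EUG1 (-0.55), a protein disulfide isomerase. Of 16 genes of filamentous growth, 4 were higher and 0 lower: the repressor gene NRG1 (1.13) and the genes of the regulators PHD1 (1.09), TEC1 (0.66) and FLO8 (0.32). The calls of NRG1 and FLO8 each ended without any of 3 libraries. Of 27 genes of methionine and sulfate metabolism, 4 were higher and 1 lower, with SUL1, the sulfate importer (1.6), highest and GSH1, of glutathione synthesis (-0.73), lower. SUL1 was at 0.83 without mutant replicate 2 (edgeR, adjusted p = 0.303), and its call also ended without any 1 WT library and with limma.

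Of 26 genes of oxidative stress, 4 were higher and 4 lower. The mitochondrial enzymes CCP1, cytochrome c peroxidase (1.01), and SOD2, superoxide dismutase (0.70), were higher, and GPX2, a peroxidase (-0.81), was lower. The calls of CCP1 (adjusted p of 0.084 to 0.137) and SOD2 (0.0597 to 0.0874) ended when any 1 of the 6 libraries was left out in edgeR, and that of GPX2 ended without mutant replicate 3 or WT replicate 2. Of 20 genes of the TCA and glyoxylate cycles, 3 were higher and 0 lower, which were LPD1 (0.62), MDH1 (0.61) and IDP1 (0.59), the last not without mutant replicate 2 (adjusted p = 0.0705 in edgeR). Among transporters of phosphate, PHO90 (-0.54) was lower, as was PHO89, while the regulator gene PHO4 (0.58) was higher, and the calls of PHO90 and PHO4 each ended without any of 3 libraries. All of these are log2 differences called by edgeR's quasi-likelihood test at an adjusted p under 0.05. Counts of the other lists, higher then lower, stand beside 8.43% and 6.96% of all genes. They were 0 and 2 of 22 for glucan synthesis and 2 and 1 of 20 for the osmotic response. Chitin had 2 and 2 of 16, above both shares. Sodium, potassium and proton transport had 0 and 1 of 16, and S phase targets of Hcm1 had 2 and 1 of 18. RNA polymerases I and III had 0 and 1 of 24. Meiosis had 0 and 0 of 18 (2 at an unadjusted p under 0.05 in edgeR). The 24 RNA polymerase genes nevertheless all lay below 0, from -0.48 to -0.05. Their median was -0.24 at 12 h and -0.02 at 0 h, and 10 had an unadjusted p under 0.05 at 12 h in edgeR. Of 16 stationary phase genes 3 were higher, and 0 were without WT replicate 2 or WT replicate 3.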
